A study of Mus musculus with 18 samples.

Results

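The comparison described here asks which genes answered MPTP differently in the striatum than in the rest of the brain regions sampled. MPTP is a neurotoxin whose metabolite is taken up by dopaminergic neurons, and mice treated with it are used to model Parkinson's disease. Male C57BL/6J mice, 14 weeks old, received 30 mg/kg MPTP, given as the free base, or saline intraperitoneally once daily on 5 days, and were killed 4 days after the last dose. RNA of striatum, midbrain and frontal cortex was hybridised to Affymetrix arrays, 3 saline and 3 MPTP arrays per region. Each treatment had 3 animals per the labels, which do not say whether a replicate number marks the same animal in all 3 regions. All 18 of the 18 arrays entered the comparison. For each gene the MPTP minus saline difference in striatum was taken, and the mean of the same difference in frontal cortex and midbrain was subtracted from it. A positive value of this difference of responses therefore means that expression moved further upwards in striatum than in the other regions. It was estimated with limma for 11741 genes on the log2 scale, with 1 probe set per gene, and a gene was called where its p-value after Benjamini-Hochberg adjustment over all of them was under 0.05. These p-values measure the spread between the arrays of a group.

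The striatum receives the axons of the midbrain dopaminergic neurons that MPTP injures, whereas their cell bodies lie in the midbrain. Its own neurons are mainly GABAergic spiny projection neurons, among which run bundles of myelinated axons. Glia respond to the loss of axon terminals: astrocytes raise intermediate filament proteins, microglia proliferate and change shape, and oligodendrocytes can be renewed from precursors that pass through a short-lived, newly formed stage before they make myelin.

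The arrays had similar distributions, with medians of 5.14 to 5.21 and interquartile ranges of 3.37 to 3.65 on the log2 scale. The labelled tissues matched their defining markers. Over the 6 spiny neuron markers measured, the log2 of the summed level was 14.09 to 14.24 on the 6 striatal arrays and at most 9.96 on the others. The cortical glutamatergic markers summed to at least 12.28 on the cortical arrays and the dopaminergic and excitatory midbrain markers to at least 11.85 on the midbrain arrays. Markers of cortical glutamatergic neurons and of choroid plexus varied between striatal arrays, as given with the genes that fell or stood lower.

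Of the 11741 genes, 15 (0.128%) differed in their response between striatum and the other regions, 14 with a higher value in striatum (0.119%) and 1 with a lower value (0.00852%). The higher ones included a non-coding RNA of newly formed oligodendrocytes, 9630013A20Rik, the signalling genes Cnksr3 and Rras2 and the hyaluronidase gene Cemip2. They also included Nfasc, of the oligodendrocyte and myelin list used below, and Adamts4 and Sirt2, which that list did not hold. The rest were the astrocyte genes Gfap, Vim and Clu, and Marcksl1, Tmem163, Rnf122 and Fam107b. The junction scaffold gene Magi1 was the gene with the lower value. The differences ran from 0.44 to 2.89 among the higher genes, with standard errors of 0.084 to 0.18 for all 15. Over all tested genes the median difference was -0.066 and 30.7% of the estimates were positive. The bulk of genes thus lay slightly to the negative side while nearly all called genes lay on the positive side. This positive share moved with the processing, from 26% with a filter at the 75th percentile to 43.01% after a second quantile normalization. The shares set beside the gene lists below are those of the main fit. Without adjustment 900 genes had a p under 0.05, where 587.05 would be reached if no gene differed. 9630013A20Rik, a Riken clone that the naming rule passes over, was singled out after its values were seen.

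The called genes changed mainly in striatum. All 15 were called for MPTP minus saline within striatum, where 2.1% of tested genes were called, none of the 15 was called in cortex (0.0681%), and Adamts4 was the only one called in midbrain (2.54%). These comparisons share the striatal, cortical or midbrain arrays with the difference of responses. The striatal change enters that difference with full weight and the other changes only as their mean. Striatal calls, and striatal groups that do not overlap, were therefore favoured by the selection and are not a separate result. The striatal changes of the called genes were 0.53 to 3.01 in size, and the mean changes in the other regions ran from -0.27 to 0.29. In striatum the 3 MPTP arrays lay above the 3 saline arrays for 14 of the genes and below them for Magi1, against 8.46% and 14.7% of all tested genes. In cortex the MPTP arrays lay above the saline arrays for 3 of the 15 genes, beside 10.2% of all tested genes, and below them for 0, beside 3.12%. In midbrain they lay above for 0, beside 11.1%, and below for 2, Adamts4 and Sirt2, beside 5.17%, so that the groups overlapped for 12 of the 15 genes in cortex and 13 in midbrain, shares near those of all tested genes.

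**Figure D1:**
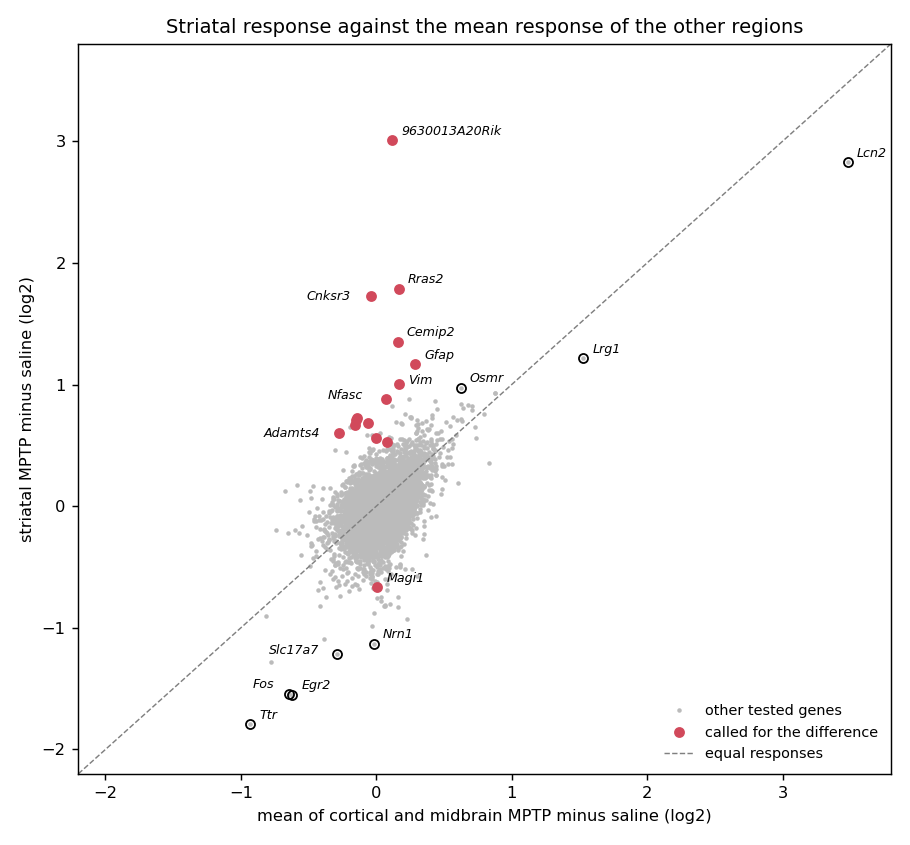
Striatal MPTP minus saline difference (vertical axis, log2) against the mean of the cortical and midbrain differences (horizontal axis, log2) for 11741 genes, 1 point each; red points are the 15 called genes, open circles are other genes labelled by name, and the dashed line marks equal responses. The called genes stand above or below the line near 0 on the horizontal axis, from 9630013A20Rik at 3.01 in striatum to Magi1 at -0.66, while Lcn2, with 2.83 in striatum, lies near the line.

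The largest difference belonged to 9630013A20Rik, known as lncOL1, a long non-coding RNA that is known as a marker of newly formed oligodendrocytes. Its probe set read 4.15, 4.42 and 4.14 (log2) on the saline striatal arrays and 7.39, 7.33 and 7.01 on the MPTP striatal arrays. On the 12 arrays of the other regions it read between 3.62 and 4.22. The MPTP striatum therefore stood apart from every other group, and 9630013A20Rik was the only called gene that stayed below 5.18, the median of all values and the filter level, on every cortical and midbrain array. The difference of responses was 2.89 (SE 0.171, 95% interval 2.54 to 3.24, adjusted p = 1.68e-10 by limma), with changes of 3.01 in striatum, 0.33 in cortex and -0.095 in midbrain. Its striatal saline level lay below the filter level, and the rise was at least 4.18-fold when counted from that level. It entered the test through the striatal mean alone, which the 3 MPTP arrays raised, so its presence among the tested genes is tied to its rise. Its other probe sets gave 2.98 and, for the dimmest, 1.01. In bulk tissue more cells of a type and more RNA per cell cannot be told apart, here or for any gene below.

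Cnksr3 encodes a scaffold of the connector enhancer of KSR family, which links RAS to its kinase cascade. It read 5.78, 6.14 and 6.21 in saline striatum and 7.88, 7.69 and 7.73 in MPTP striatum. In cortex it read 5.68, 5.67 and 5.88 after saline and 5.98, 5.87 and 5.67 after MPTP, and in midbrain 6.70, 6.28 and 6.79 after saline and 6.38, 6.44 and 6.43 after MPTP. All MPTP striatal values were above every other array, and the treatment groups of the other regions overlapped. The difference was 1.77 (SE 0.163, 95% interval 1.43 to 2.10, adjusted p = 8.97e-07 by limma), and striatal expression rose 3.31-fold.

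Rras2 encodes TC21, a small GTPase of the R-Ras family. It read 4.82, 5.00 and 4.68 in saline striatum, all below the filter level, and 6.80, 6.63 and 6.44 in MPTP striatum. In cortex it was already at 6.46, 6.34 and 6.28 after saline and at 6.55, 6.84 and 6.66 after MPTP, and in midbrain at 5.09, 5.33 and 5.44 and at 5.51, 5.14 and 5.26. The treated striatum thus reached the cortical range from a saline level that was the lowest of the 3 regions. The difference was 1.62 (SE 0.163, 95% interval 1.29 to 1.96, adjusted p = 2.88e-06 by limma), with a rise in striatum of at least 2.72-fold when counted from the filter level, and a second probe set gave 1.45.

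Cemip2 encodes a transmembrane hyaluronidase that cleaves hyaluronan of the extracellular matrix. It read 5.88, 6.39 and 6.15 in saline striatum and 7.64, 7.52 and 7.31 in MPTP striatum, and between 6.29 and 6.74 on the arrays of the other regions. The 3 MPTP striatal arrays were again the highest of all 18. The difference was 1.19 (SE 0.165, adjusted p = 0.000631 by limma), and the striatal rise was 2.55-fold.

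**Figure D2:**
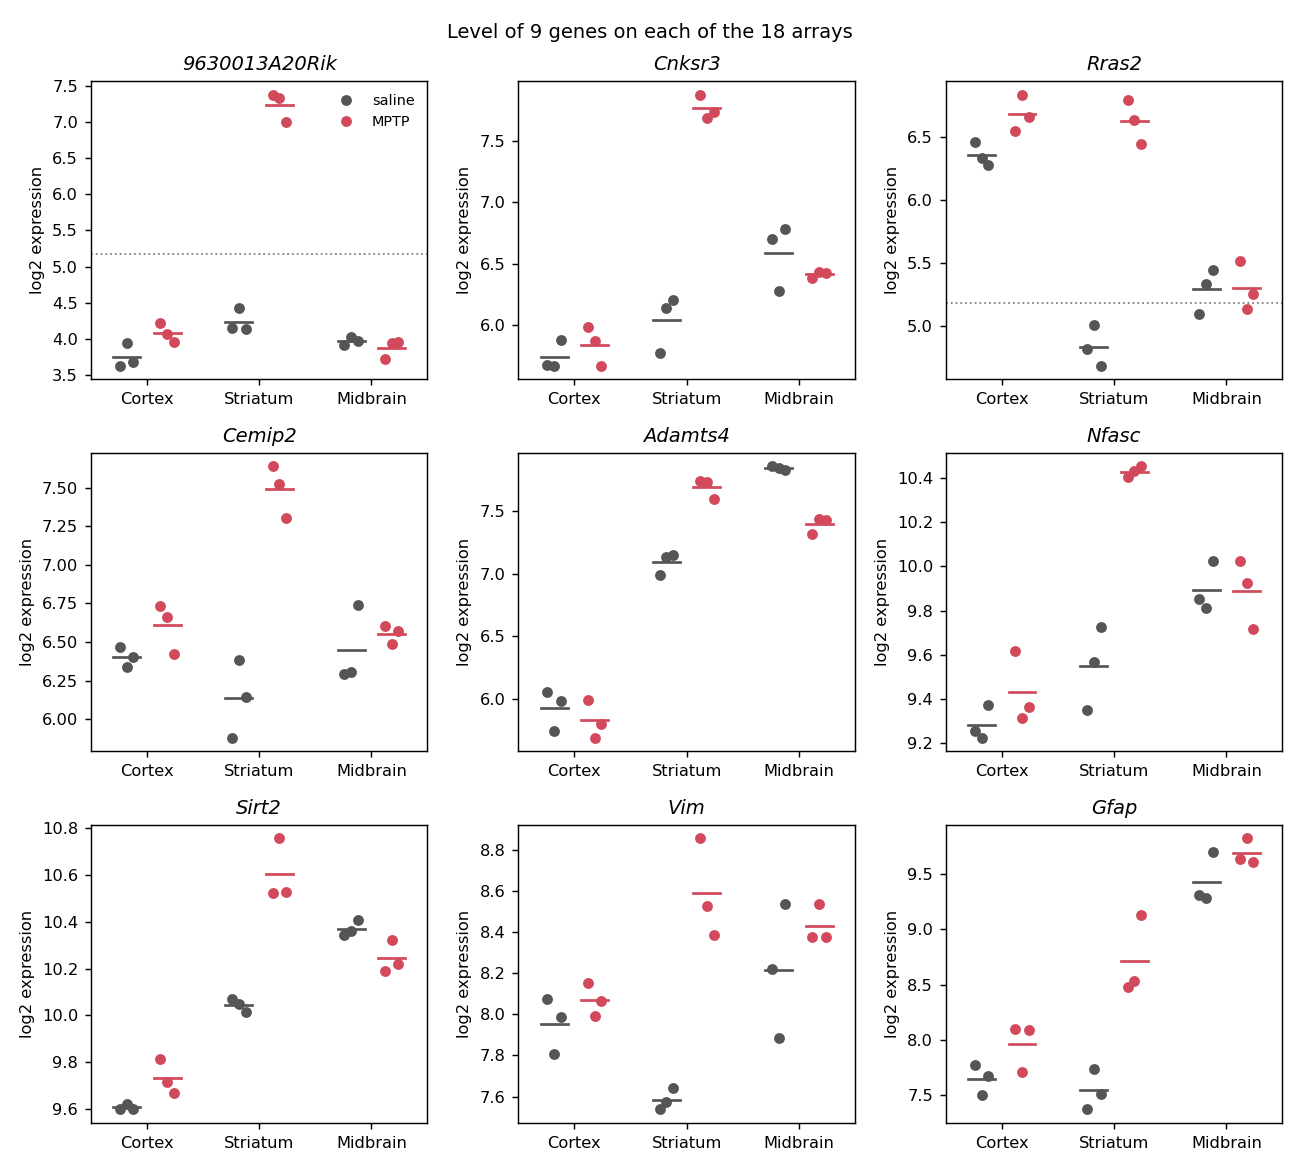
Log2 expression of 9 of the called genes on each of the 18 arrays (vertical axis), by region (horizontal axis) and treatment (grey saline, red MPTP); points are arrays, horizontal bars are means of 3 arrays, and the dotted line, where within the panel, is the filter level of 5.18. In each panel the red striatal points lie above the grey striatal points, while 9630013A20Rik stays between 3.62 and 4.22 in the other regions.

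The start regions of 9630013A20Rik, Cnksr3, Rras2 and Gfap are shown as a description only. These genes were selected for their difference of responses, and whether they share regulation was not tested. Gfap, with an adjusted p of 0.0421 by limma, had the only window with a STAT site. The windows reach from 250 bases before to 50 after the annotated start, from RefSeq on GRCm38.p6, and 11 of the 15 called genes matched with 13 windows. They were searched on both strands for the STAT site TTCNNNGAA, the cyclic AMP response element TGACGTCA and the CArG box of serum response factor. Capitals mark a match. The windows lie at chr14:84476375-84476674 on the minus strand for 9630013A20Rik, chr10:7212188-7212487 on the minus strand for Cnksr3, chr7:114117732-114118031 on the minus strand for Rras2 and chr11:102897151-102897450 on the minus strand for Gfap, and each covers the first bases of the transcript and the flank before it.
9630013A20Rik: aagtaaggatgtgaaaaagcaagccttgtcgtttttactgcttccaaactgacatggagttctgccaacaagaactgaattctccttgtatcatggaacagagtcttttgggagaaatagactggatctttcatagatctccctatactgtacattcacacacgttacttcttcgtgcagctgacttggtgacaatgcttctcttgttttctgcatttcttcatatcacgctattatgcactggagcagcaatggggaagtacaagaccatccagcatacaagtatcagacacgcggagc
Cnksr3: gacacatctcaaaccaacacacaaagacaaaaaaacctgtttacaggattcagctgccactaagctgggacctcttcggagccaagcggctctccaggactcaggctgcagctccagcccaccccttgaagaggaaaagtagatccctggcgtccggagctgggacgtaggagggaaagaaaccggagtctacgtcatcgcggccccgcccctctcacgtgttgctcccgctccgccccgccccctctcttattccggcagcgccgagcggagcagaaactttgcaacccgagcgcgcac
Rras2: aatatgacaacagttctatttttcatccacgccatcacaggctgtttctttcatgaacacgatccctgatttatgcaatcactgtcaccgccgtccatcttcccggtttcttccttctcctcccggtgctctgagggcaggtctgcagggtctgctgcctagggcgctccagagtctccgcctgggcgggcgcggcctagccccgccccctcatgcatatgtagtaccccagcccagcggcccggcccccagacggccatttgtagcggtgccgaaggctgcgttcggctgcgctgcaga
Gfap: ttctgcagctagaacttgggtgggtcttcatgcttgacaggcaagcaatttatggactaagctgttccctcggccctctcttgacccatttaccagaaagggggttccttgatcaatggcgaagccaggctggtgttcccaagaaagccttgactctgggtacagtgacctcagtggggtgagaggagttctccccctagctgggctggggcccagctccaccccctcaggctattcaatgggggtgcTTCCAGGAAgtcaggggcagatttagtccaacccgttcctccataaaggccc
The Gfap window held a STAT site, TTCCAGGAA, that begins at position -2 relative to the first transcribed base, and the Tmem163 window held a CArG box, CCATTTAAGG, beginning at position -217. A STAT site was thus present in 1 of 13 windows (7.69%), beside 8.3% of all 32851 windows of this length and 6.48% of those of tested genes. A CArG box was in 1 of 13 windows, beside 1.63% of all windows, and TGACGTCA in 0 of 13, beside 1.79%. None of these sites was in the windows of 9630013A20Rik, Cnksr3 or Rras2, which says only that these sites are not within these 300 bases.

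Among genes of myelin and the axon contact, Nfasc encodes neurofascin, whose glial and neuronal forms anchor the myelin loops and the nodes of Ranvier. It read 9.35, 9.57 and 9.73 in saline striatum and 10.41, 10.43 and 10.45 in MPTP striatum. The groups did not overlap, and each MPTP value was above all cortical and midbrain values, the highest of which was 10.02. The difference was 0.81 (SE 0.118, adjusted p = 0.000946 by limma). Of its other probe sets, one gave 0.52 and one 0.098, so the size depended on the probe set.

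Sirt2, an NAD-dependent deacetylase abundant in myelin, read 10.07, 10.05 and 10.01 in saline striatum and 10.52, 10.76 and 10.53 in MPTP striatum. Its difference, 0.56 (SE 0.0843, adjusted p = 0.00145 by limma), was among the smaller ones but had the smallest standard error of the 15, and striatal expression rose 1.47-fold. Its differences elsewhere were 0.13 in cortex and -0.13 in midbrain, where the groups were also separate but the difference was not called.

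Adamts4, a protease of matrix proteoglycans that is made by oligodendrocytes in the brain, rose in striatum and was the one called gene whose midbrain fall also passed the test. In striatum it read 6.99, 7.13 and 7.15 after saline and 7.74, 7.74 and 7.60 after MPTP. In midbrain it read 7.86, 7.85 and 7.83 after saline and 7.32, 7.44 and 7.43 after MPTP. Neither pair of groups overlapped. Adamts4 rose by 0.60 in striatum (adjusted p = 0.00265) and fell by 0.45 in midbrain (adjusted p = 0.0204), and the difference of responses was 0.87 (SE 0.125, adjusted p = 0.00087 by limma). In cortex its change was -0.099.

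Another 4 higher genes gave differences of 0.75 to 0.87. Marcksl1, which encodes a MARCKS-like protein that binds actin, gave 0.82 (SE 0.159, adjusted p = 0.0306), with changes of 0.66 in striatum and -0.29 in cortex. Tmem163, a zinc transporter gene, gave 0.75 (SE 0.141, adjusted p = 0.0246), the RING-type ubiquitin ligase gene Rnf122 gave 0.87 (SE 0.173, adjusted p = 0.0362) and Fam107b gave 0.86 (SE 0.139, adjusted p = 0.00367). The striatal values of Fam107b were 6.11, 6.01 and 5.89 after saline and 6.72, 6.70 and 6.73 after MPTP, so that the treated arrays were close together and clear of the saline ones.

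**Figure D3:**
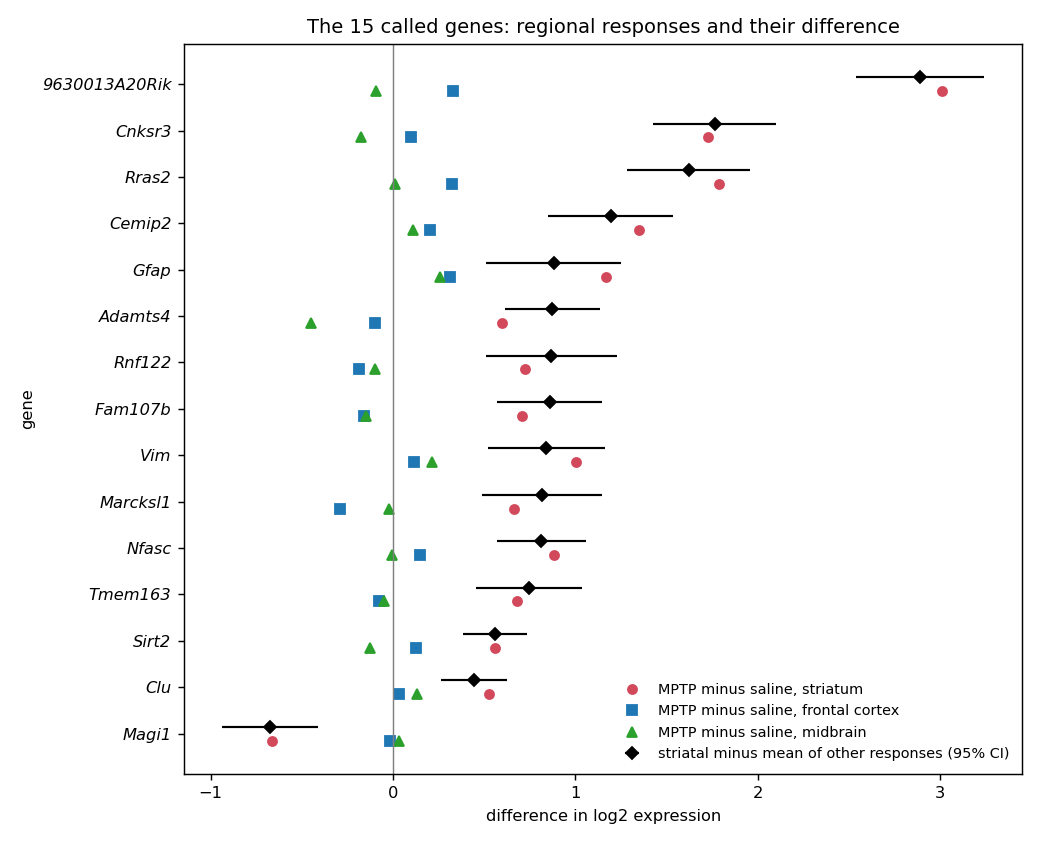
MPTP minus saline differences in striatum (red circles), frontal cortex (blue squares) and midbrain (green triangles) for the 15 called genes, with the difference between the striatal and the mean of the other responses (black diamonds, lines are 95% intervals); horizontal axis in log2 units. The cortical and midbrain symbols lie near 0 for most genes, and Adamts4 in midbrain, at -0.45, is the clearest exception.

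Myelin genes as a group leaned to the positive side without most of them passing the test. Of 26 tested genes of oligodendrocytes and myelin, 24 had a positive estimate, beside 30.7% of all tested genes, and their median was 0.20, beside -0.066. Only Nfasc passed the test, and 9 members, all positive, had an unadjusted p under 0.05. Cldn11, the tight junction protein of myelin, read 8.76, 8.79 and 8.97 in saline striatum and 9.90, 9.67 and 9.61 in MPTP striatum, and its difference was 0.64 (SE 0.142, adjusted p = 0.0866 by limma). Cldn11 also stood higher on every MPTP array of midbrain than on any saline one, with a midbrain change of 0.40 beside 0.88 in striatum. Ugt8a, the enzyme that makes galactosylceramide, gave 0.55 (SE 0.117, adjusted p = 0.0598), and Mag, a myelin adhesion protein, gave 0.46 (SE 0.109, adjusted p = 0.124). The major structural genes showed less, with 0.19 for Mbp and 0.30 for Mog. The 4 defining oligodendrocyte markers measured summed to 13.50 to 13.55 in saline striatum and 13.74 to 13.87 in MPTP striatum on the log2 scale. The groups did not overlap. They were also separate in midbrain, at 13.74 to 13.92 after saline and narrowly above after MPTP, up to 13.99, and overlapped in cortex. The part of these shifts in the called genes was not tested.

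Genes of the newly formed stage were listed after the values had been seen, so their counts describe the choice. Of 21 tested, 7 were among the called genes, beside 0.128% of all tested genes, and 15 had a positive estimate, beside 30.7%. The calls were known when the list was made, so the 7 are not a separate result. They include 9630013A20Rik, Cnksr3 and Nfasc, and Cnksr3 and Nfasc are also counted in other lists. Other members of the list did not pass the test: Bcas1 gave 0.074, Gpr17 0.092, Itpr2 0.27 and Sema5a 0.46. The 6 negative members were Gp1bb at -0.23, Mical3 at -0.15, Lims2 at -0.14, Cyfip2 at -0.14, Tmem108 at -0.087 and Samd4b at -0.047. Bcas1 read 11.22, 11.34 and 11.25 in saline striatum and 11.40, 11.21 and 11.25 in MPTP striatum, so that these groups overlapped. Among 13 genes of oligodendrocyte precursors 8 estimates were positive, none was called and the median was 0.019. Olig1, a lineage transcription factor, gave 0.29, and Vcan, a proteoglycan of the precursor surface, gave -0.48, neither past the threshold. The precursor markers Pdgfra and Cspg4 summed to 7.97 to 8.33 in saline and 8.32 to 8.47 in MPTP striatum.

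Astrocyte filaments rose further in striatum than elsewhere. Gfap, the filament protein of astrocytes, read 7.37, 7.74 and 7.52 in saline striatum and 8.48, 8.53 and 9.13 in MPTP striatum. In cortex it read 7.78, 7.50 and 7.67 after saline and 8.10, 7.71 and 8.09 after MPTP, and in midbrain 9.31, 9.28 and 9.70 and then 9.63, 9.82 and 9.60. Only in striatum were the groups separate, and even treated striatum stayed below every midbrain array. The difference was 0.88 (SE 0.179, adjusted p = 0.0421 by limma) for a 2.25-fold striatal rise, and its other probe sets gave 0.84 and 0.72. Vim, which encodes the filament protein vimentin, read 7.54, 7.57 and 7.64 in saline striatum and 8.86, 8.53 and 8.39 in MPTP striatum. Its difference was 0.84 (SE 0.156, adjusted p = 0.022 by limma), with 0.83 and 0.93 from its other probe sets. Clu, the secreted chaperone clusterin that astrocytes make, read 12.30, 12.30 and 12.31 in saline striatum and 12.85, 12.74 and 12.89 in MPTP striatum. Its difference was small, at 0.44 (SE 0.0872, adjusted p = 0.0339 by limma).

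Among the reactive astrocyte genes no others were called. Of 15 tested, Gfap and Vim passed the test, 9 had a positive estimate and the median was 0.16. Lcn2, lipocalin 2, gave -0.65 with a standard error of 1.09: its changes were 2.83 in striatum, 3.34 in cortex and 3.63 in midbrain, and in each region the second MPTP array, at 4.11 in striatum, read far lower than the others, at 7.59 and 7.71. Osmr, the oncostatin M receptor, gave 0.35 (SE 0.282), from changes of 0.97, 0.48 and 0.76. Among 20 genes of astrocytes at rest 16 estimates were positive, none was called and the median was 0.095, the largest being the connexin Gjb6 at 0.48 (SE 0.167, adjusted p = 0.5) and the water channel Aqp4 at 0.35 (SE 0.0994, adjusted p = 0.309). The 5 astrocyte markers summed to 11.55 to 11.71 in saline and 11.90 to 12.16 in MPTP striatum, and Gfap is one of them. In midbrain they were separate as well, at 12.32 to 12.53 after saline and 12.58 to 12.67 after MPTP, and in cortex they overlapped. The part of these shifts in the values of Gfap, Vim and Clu was not tested.

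Microglial genes gave small positive values. None of 27 was called, 20 were positive and the median was 0.10. The largest were the purinergic receptor P2ry12, at 0.38 (SE 0.154, adjusted p = 0.574), and the receptor Gpr34, at 0.38 (SE 0.158, adjusted p = 0.595). Selplg gave 0.25 and Ly86 0.24. Of 12 genes of microglial activation none was called, and the median was 0.10. Ly86 read 8.11, 8.12 and 8.03 in saline striatum and 8.74, 8.53 and 8.88 in MPTP striatum, separate groups, but its differences in cortex and midbrain were 0.39 each, beside 0.63 in striatum. The 5 microglial markers summed to 11.47 to 11.53 in saline and 11.71 to 12.02 in MPTP striatum. They were higher after MPTP without overlap in the other regions too, at 11.18 to 11.24 and 11.25 to 11.47 in cortex and 10.89 to 11.03 and 11.12 to 11.34 in midbrain. Of 10 complement genes Clu, listed there as a regulator, was the one called, 9 were positive and the median was 0.15. C2, a protease of the classical pathway, gave 0.46 (SE 0.2, adjusted p = 0.604).

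**Figure D4:**
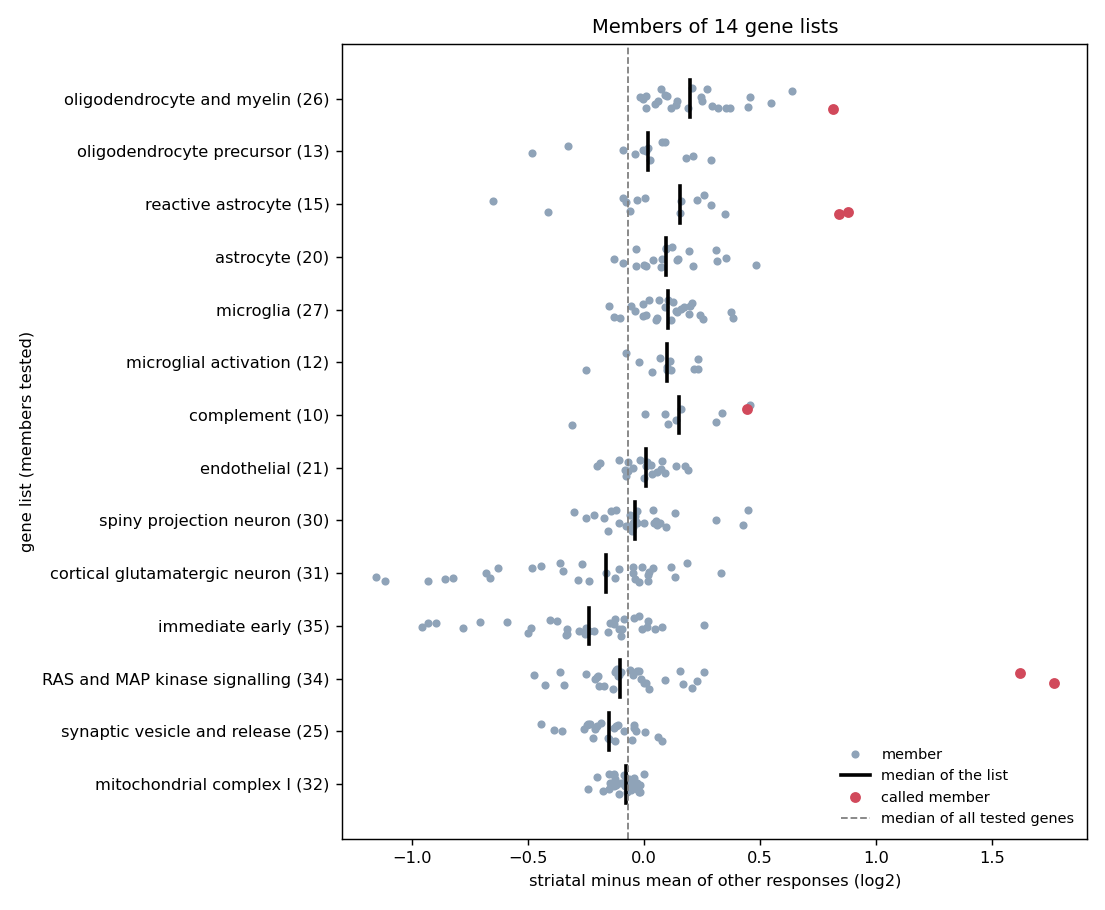
Difference between the striatal and the mean of the other responses (horizontal axis, log2) for the tested members of gene lists (vertical axis, number tested in brackets); points are genes, red points called genes, black bars list medians and the dashed line the median of all tested genes, -0.066. Oligodendrocyte and myelin genes centre at 0.20 and immediate early genes at -0.24, and the RAS list centres at -0.10 apart from Rras2 and Cnksr3.

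Rras2 and Cnksr3 were the only called genes of RAS and MAP kinase signalling, a list that was drawn up with both already known to differ. Of 34 tested members the other 32 were not called, and the share called over all tested genes was 0.128%. Negative estimates numbered 23 of the 34, near the 69.3% of all tested genes, and the median was -0.10, beside -0.066. The RAS pathway inhibitor Spry4 gave -0.48 and the kinase scaffold Ksr1 gave -0.42, neither past the threshold, and other probe sets of Ksr1 gave -0.15 and 0.079. Among 23 genes of axonal outgrowth and injury Marcksl1 and Nfasc were called, beside 0.128% of all tested genes. Of the 23, 15 were negative, near the 69.3% of all tested genes, and the median was -0.078. The semaphorin Sema4d gave 0.36 and Nrn1, neuritin, a protein of neurite growth, -1.11, both short of the threshold. Other probe sets of Sema4d gave 0.46 and 0.71, the latter with an unadjusted p of 3.67e-06 and a mean level close to that of the one tested. Of 21 genes of gp130 cytokine and STAT signalling none was called, 8 were positive and the median was -0.062, close to that of all genes.

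On the lower side Magi1 was the one called gene. It encodes a scaffold protein with guanylate kinase, WW and PDZ domains that sits at cell junctions. It read 5.75, 5.76 and 5.89 in saline striatum and 5.20, 5.04 and 5.15 in MPTP striatum, the groups being separate, and it was higher on every array of the other regions. The difference was -0.67 (SE 0.128, 95% interval -0.94 to -0.41, adjusted p = 0.0246 by limma), with changes of -0.015 in cortex and 0.031 in midbrain. The probe sets of Magi1 did not give 1 size: its 4 others gave -0.010, -0.018, -0.18 and -0.44. Slc17a6, the vesicular glutamate transporter of thalamic and midbrain neurons, gave -0.90 (SE 0.2, adjusted p = 0.0866 by limma). It read 5.34, 4.73 and 5.01 in saline striatum and 3.90, 4.43 and 4.51 in MPTP striatum, mostly under the filter level, and its place among tested genes came from the other regions. Its other probe set gave -0.30 (unadjusted p = 0.0888).

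Immediate early genes, which neurons switch on with activity, lay lower without any member being called. Of 35 tested, 30 had a negative estimate, beside 69.3% of all tested genes, 5 of them with an unadjusted p under 0.05, and the median was -0.24. Fosl2, a subunit of the AP-1 transcription factor, gave -0.95 (SE 0.357, adjusted p = 0.52 by limma), from 6.53, 6.65 and 7.20 in saline and 5.21, 5.60 and 6.61 in MPTP striatum, groups that overlapped. A second probe set of Fosl2 gave -0.080. Egr2 gave -0.93 (SE 0.448, adjusted p = 0.646) and Fos -0.90 (SE 0.579, adjusted p = 0.738), and both were also lower after MPTP in the other regions, with -0.88 and -0.67 in cortex. Bdnf, a neurotrophin gene of the same list, gave -0.78 (SE 0.35, adjusted p = 0.612). Another probe set of Bdnf gave -0.22. Without the first MPTP striatal array Fos gave -0.13, Bdnf -0.27 and Egr2 -0.60.

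Among cortical glutamatergic genes the share of negative estimates was near that of all tested genes. Of 31 tested, 23 were negative, beside 69.3%, 8 of them with an unadjusted p under 0.05, none was called and the median was -0.16, beside -0.066. Ccn3, a matricellular protein, gave -1.15 (SE 0.266, adjusted p = 0.118), Nrn1 -1.11 (SE 0.378, adjusted p = 0.5), Slc17a7, the cortical vesicular glutamate transporter, -0.93 (SE 0.612, adjusted p = 0.743) and the neuropeptide gene Cck -0.86 (SE 0.295, adjusted p = 0.5). Slc17a7 read 7.50, 8.04 and 8.61 in saline striatum and 5.04, 7.45 and 8.0 in MPTP striatum, the first MPTP array being far the lowest of the 6. Without that array Slc17a7 gave -0.032, Nrn1 -0.45 and Cck -0.36, whereas without the third MPTP striatal array Slc17a7 gave -1.52 and Nrn1 -1.58, which was then called (adjusted p = 0.0394 by limma). The 5 markers of cortical glutamatergic neurons measured summed to 9.04 to 9.87 in saline striatum and 7.32 to 9.35 in MPTP striatum, and at least 12.28 in cortex. Neurod6 and Tbr1, among them, had striatal means below the filter level in both groups. The part of these markers in the values of the lower genes was not tested.

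Choroid plexus markers varied as well. Ttr, transthyretin, gave -0.86 (SE 0.676, adjusted p = 0.773), or -0.11 without the first and -1.69 without the third MPTP striatal array. Other probe sets of Ttr gave -1.32, -1.36 and -1.43, with unadjusted p-values of 0.00253, 0.0385 and 0.0255 by limma. The 4 choroid plexus markers summed to 10.20 to 10.65 in saline and 7.43 to 10.23 in MPTP striatum, groups that overlapped narrowly. Of these markers Kl, Folr1 and Kcne2 were below the filter level in every group. Of 7 tested genes of choroid plexus and ependyma 4 were positive and none was called.

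The dopaminergic genes, which name the target of the toxin, held no called member. Th, tyrosine hydroxylase, gave 0.15 (SE 0.352, adjusted p = 0.941), from changes of -0.40 in striatum, -0.29 in cortex and -0.82 in midbrain. In cortex Th reached the filter level on only 2 of 6 arrays, and its saline arrays there read 6.28, 4.81 and 4.44. The cortical change of Th thus leaned on the first saline array. The dopamine transporter gene Slc6a3 gave -0.00096 (SE 0.187), the vesicular transporter gene Slc18a2 0.21 (SE 0.242) and the decarboxylase gene Ddc 0.42 (SE 0.177, adjusted p = 0.599). Slc6a3 and Slc18a2 were below the filter level in striatum and cortex, so that the difference set a midbrain change against values below that level. Of 18 dopaminergic genes none was called and the median was -0.017.

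The other lists held no called gene. Spiny projection neuron genes, 30 tested, had a median of -0.039, with the orphan receptor Gpr6 at 0.45 and Strip2 at 0.43 as the largest values. Synaptic vesicle genes were negative in 22 of 25 (median -0.15), with the release protein Stx1a at -0.44, and potassium channel genes in 21 of 28 (median -0.073), beside 69.3% of all tested genes. Complex I subunits were negative in 31 of 32, but their median of -0.075 was close to that of all tested genes. Medians were 0.0077 for 21 endothelial genes, 0.14 for 19 genes of pericytes, smooth muscle and meninges, -0.073 for 16 thalamic and midbrain excitatory genes, -0.087 for 18 GABAergic genes and 0.23 for 7 cholinergic genes. They were -0.038 for 27 glutamate and GABA receptor genes, -0.093 for 15 dopamine and trophic receptor genes, 0.066 for 12 interferon genes, 0.024 for 26 glucocorticoid-induced genes, -0.10 for 11 metallothionein and iron genes, 0.077 for 21 clock genes and -0.019 for 21 cholesterol synthesis genes.

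Just past the threshold stood genes picked for their adjusted p, after it was seen: Igfbp5, which binds insulin-like growth factors, at 0.50 (adjusted p = 0.0508), the lysosomal protease gene Ctsl at 0.40 (adjusted p = 0.051) and Tmem141 at 0.67 (adjusted p = 0.0533), all by limma. Of the alternative settings, 9 of 14 called Ctsl, 8 of 14 Igfbp5, 6 of 13 Tmem141 and 7 of 14 Ugt8a. The members just inside were Gfap at 0.0421 and Rnf122 at 0.0362. Ctsl read 9.65, 9.60 and 9.45 in saline striatum and 9.98, 9.99 and 9.86 in MPTP striatum, separate groups, and each MPTP cortical array was below the saline ones.

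The saline levels of the called genes were not independent of the call. In saline animals 13 of the 15 were highest in midbrain, beside 40.6% of all tested genes, Rras2 was highest in cortex and 9630013A20Rik in striatum. The saline level was lowest in striatum for 9 of them, which was not counted over all tested genes. Saline arrays of midbrain and cortex enter the difference with a plus sign and those of striatum with a minus sign. A high midbrain and a low striatal saline level thus favour a positive value, so these counts are not a separate result. Of 25 other probe sets for 12 of the called genes 25 pointed the same way as the chosen one. Among 21 of them at or above the filter level 17 had an unadjusted p under 0.05. These probe sets read the same RNA on the same arrays, so they are not independent support. The same shares were not counted for genes that were not called.

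Split into its parts, the difference kept the leading genes. Against cortex alone 7 genes were called (0.0596%), all higher in striatum, and against midbrain alone 8 (0.0681%), all higher, each part having fewer arrays behind the subtracted term and a median standard error of 0.15 beside 0.13. Cnksr3 gave 1.63 against cortex and 1.90 against midbrain, and Rras2 gave 1.47 and 1.78. Adamts4 (1.05) and Sirt2 (0.68) were called against midbrain and not against cortex, where they gave 0.70 (adjusted p = 0.0712) and 0.43 (adjusted p = 0.123), and Marcksl1 (0.95) against cortex and not midbrain, at 0.69 (adjusted p = 0.341). Whether these sizes differ between the parts is the difference between the cortical and midbrain responses, which was not tested here.

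With each array left out in turn, 8 called genes stayed called in all 18 fits: 9630013A20Rik, Cnksr3, Rras2, Cemip2, Adamts4, Nfasc, Sirt2 and Fam107b. Gfap lost its call in 10 of them, Rnf122 and Clu in 12, Marcksl1 in 9, Magi1 and Tmem163 in 5 and Vim in 4. The number of called genes ran from 8, without the third saline striatal array, and 9, without the third MPTP cortical array, to 25, without the third MPTP striatal array, when 15 were higher and 10 lower. With all arrays it was 9 when the probe sets of a gene were averaged, which left Magi1 uncalled, and 33 after a second quantile normalization.

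**Figure D5:**
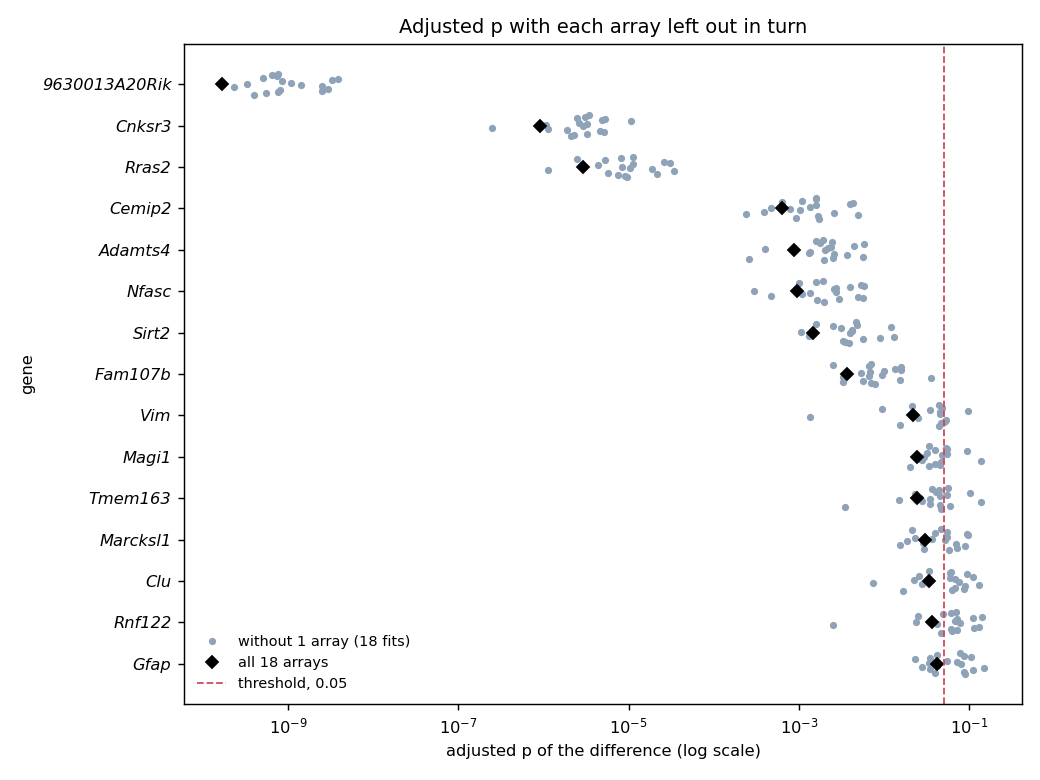
Adjusted p of the difference (horizontal axis, log scale) for each of the 15 called genes with all 18 arrays (black diamonds) and with any 1 array removed (blue points, 18 fits per gene); the dashed line is the threshold of 0.05. The 8 upper genes stay left of the line in all fits, and the points of the other 7 cross it.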

How the data were processed

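The deposited values were log2 expression summaries of 45101 probe sets on 18 arrays, made by the authors with RMA per the submitters' processing notes; the RMA version is not given in the sources used here, and the range of the values, 2.48 to 14.2, gave the log base. RMA brings the arrays to one distribution before the probes are summarised, so a shift of all genes would be largely removed. The summarised values still differed between arrays, with interquartile ranges of 3.37 to 3.65. No detection call was used. A gene (18194 in all) took the probe set with the highest mean over all arrays, named by Entrez ID where possible, and entered the test where some region's mean was no lower than 5.18, the median of all values, as it was for 11741 genes. Limma 3.58.1 (R 4.3.3) was fitted with 6 group means and an intensity trend in the variance, which gave 23.2 degrees of freedom, with Benjamini-Hochberg adjustment of the p-values. The fit was tested on simulated data. The number of arrays limits the precision.

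The contrast, the 30 gene lists (788 entries, 621 tested) and the markers were chosen with earlier results of these data known, and one list and one alternative were added after values were seen. Named were up to 12 called genes each way, 6 for each part, 4 per list, and the dopaminergic genes; others named were chosen after their values were seen. Alternatives covered the filter, normalization, probe sets, variance, array weights, the interquartile range, blocks by number or animal, and each array left out.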

Additional observations from a re-analysis of the deposited data

Results flagged for a closer look

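The response to MPTP differed between striatum and another region, by the interaction term of limma, for these genes. Each entry is a difference of 2 MPTP minus saline differences on the log2 scale, and all were higher in striatum.

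Against frontal cortex, the oligodendrocyte RNA 9630013A20Rik gave 2.68 (SE 0.197, adjusted p = 1.79e-08), Cnksr3 1.63 (SE 0.189, adjusted p = 6e-05) and Rras2 1.47 (SE 0.188, adjusted p = 0.000237). Cemip2 gave 1.15 (SE 0.19, adjusted p = 0.011) and Marcksl1 0.95 (SE 0.184, adjusted p = 0.0485). Fam107b gave 0.86 and Nfasc 0.74, each with an adjusted p of 0.0347.

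Against midbrain, 9630013A20Rik gave 3.10 (SE 0.197, adjusted p = 7.99e-10), Cnksr3 1.90 (SE 0.189, adjusted p = 3.45e-06) and Rras2 1.78 (SE 0.188, adjusted p = 7.77e-06). Cemip2 gave 1.24, Adamts4 1.05, Nfasc 0.89, Fam107b 0.86 and Sirt2 0.68, with adjusted p-values from 0.000579 for Adamts4 to 0.0292 for Fam107b. The same saline and MPTP striatal arrays stand in both sets, so that the sets do not support each other.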

How the results depend on the processing

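The counts of called genes, 15 for striatum against the mean of the other regions, 7 against cortex and 8 against midbrain, moved with the processing. In that order they were 33, 21 and 22 after a second quantile normalization, 27, 24 and 23 with array weights, 23, 24 and 20 with the interquartile range as a covariate, and 9, 4 and 7 when the probe sets of each gene were averaged, which kept 9 of the 15. Against cortex 4 genes were called without a filter and 0 by limma with a filter at the 75th percentile, where 641 had an unadjusted p under 0.05, and against midbrain 3. With the saline array of narrowest interquartile range dropped from each region, an alternative chosen after seeing the data, the counts were 20, 4 and 13. Leaving out each array gave 8 to 25, 3 to 11 (3 without the third MPTP cortical or first MPTP striatal array) and 7 to 14 (14 without the first saline midbrain array). A second normalization moved the median of all genes from -0.066 to -0.023 and the share of positive estimates from 30.7% to 43.01%. The cause of these movements was not tested.

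Of the 15 genes, 7 were called under every alternative that tested them and 8 in every fit with an array left out; the eighth, Nfasc, had an adjusted p of 0.126 with averaged probe sets. Signs turned for genes that were not called: the transporter gene Slc6a3 gave 0.021 after a second quantile normalization, 0.0084 with centred arrays, 0.18 without the saline arrays of narrowest range and -0.15 to 0.15 with an array left out, Th gave -0.13 (without the first saline cortical array) to 0.33, and Lcn2 gave -1.29 to 0.53 (without the second MPTP striatal array).

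Replicate numbers were not taken as pairing because the labels do not say whether a number marks the same animal. The deviations of same-numbered arrays from their group means correlated at -0.233 to 0.342 in 18 pairs, 11 of them over 0.1. Same-numbered MPTP arrays correlated at 0.002 to 0.183, and every negative value involved the first or second saline striatal array. The first saline striatal array correlated at 0.3 and 0.252 with the second saline arrays of cortex and midbrain. The second correlated at 0.142 and 0.187 with the first ones. Blocks by number or animal used the numbers as labelled. Differently numbered arrays of the same treatment correlated at -0.272 to 0.3 between regions. Of the 18 arrays, 9 correlated best with their own number in both other regions. The main fit takes all arrays as independent, although each treatment had 3 animals per the labels. With the replicate block as number the counts were 15, 10 and 8, with the animal as a random block 17, 7 and 8, and with the animal as a fixed block 19, 13 and 12, and each block kept all calls. Small striatal values limit 9630013A20Rik and Rras2, which were below 5.18 in saline striatum. They also limit Magi1, which read 5.20, 5.04 and 5.15 in MPTP striatum.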
